A study of Mus musculus with 12 samples.

Results

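A group of 10 genes of the pathway through which the microglial receptors Trem2 and Clec7a and the adaptor Tyrobp signal was followed in bulk hippocampal mRNA sequencing of an Alzheimer's disease mouse model. The genes were taken by name from a table of 55573 genes, and all 10 were found and passed the filter on low counts, which 15521 genes passed in all. Trem2, Tyrobp and Clec7a are also among the genes that the study singled out from the same libraries, so their direction here is not independent evidence. The APP/PS1 mice (APPSwe/Ps1dE9) carry a chimeric mouse/human APP with the Swedish mutation and a human presenilin 1 lacking exon 9, each driven by a prion promoter element, and the controls were wild-type (WT) mice. All animals were C57BL/6J and 4.5 months old, and the whole right hippocampus of each was sequenced. Each sex was represented by 4 APP/PS1 and 2 WT animals, and each animal by 1 library.

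Microglia are the resident macrophages of the brain, and in amyloid models they gather around plaques. Trem2 is a lipid and lipoprotein receptor of these cells. It has no signalling motif of its own in its short tail and instead pairs in the membrane with Tyrobp (also called DAP12), whose tail holds an immunoreceptor tyrosine-based activation motif (ITAM). Clec7a (Dectin-1), a receptor for fungal beta-glucan, carries a single tyrosine motif of that kind, often called a hemITAM. Once phosphorylated, both recruit the kinase Syk, which acts through the phospholipase Plcg2, the guanine nucleotide exchange factor Vav1 and, from Clec7a, the adaptor Card9. The lipid phosphatase Inpp5d (SHIP1) and the tyrosine phosphatase Ptpn6 (SHP-1) restrain such signals. The sialic acid receptor Cd33 is described beside them, without a claim that the mouse protein is inhibitory.

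The motifs that give the pathway its name were read from the coding sequences of the principal transcripts in GENCODE release M21 (GRCm38), with codons counted from the start codon. The full ITAM, a pair of tyrosine codons each followed after 2 further codons by leucine or isoleucine and spaced as in known ITAMs, was found in 1 of the 10 members, Tyrobp, where codons 92 and 103 are the tyrosines and 10 codons lie between them. The Tyrobp stretch, codons 87 to 111, spans 2 exons on the plus strand within chr7:30415655-30417397. The Clec7a stretch, codons 10 to 23 at chr6:129472617-129472658 on the minus strand, holds a single such tyrosine codon at position 15. Cd33 matched the same single pattern at codons 331 to 334 (stretch chr7:43528865-43528891, minus strand) but not, at that tyrosine, the pattern of an inhibitory motif. The tyrosine codons are in capitals.
Tyrobp codons 87 to 111: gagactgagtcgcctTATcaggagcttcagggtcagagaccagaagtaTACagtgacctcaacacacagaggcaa
Clec7a codons 10 to 23: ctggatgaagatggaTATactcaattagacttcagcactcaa
Cd33 codons 326 to 334: gggaagcctcaggagTACtcagagatc

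The 250 bases before the annotated start of each gene, from RefSeq (GRCm38.p6), were searched for GAGGAA, a core bound by the myeloid factor PU.1 (Spi1), and for the longer GAGGAAGT, which contains it, on both strands. Of the 10 members, 9 had an entry, all but Tyrobp. GAGGAA was found for 6 of these (Trem2, Clec7a, Cd33, Vav1, Inpp5d and Syk, the last in the second of its windows), against 25.9% of all genes with a window, and GAGGAAGT for Vav1 and Inpp5d, against 2.79%. The windows of Trem2, Clec7a, Vav1 and Cd33 are shown because these genes had a match and were higher in APP/PS1 animals, with the match in capitals. In Trem2 the match lies on the opposite strand, so its reverse complement appears. The RefSeq window of Cd33 lies inside the span of the GENCODE gene. These matches are letters in a sequence and were not tested as binding sites.
Trem2 chr17:48346151-48346400, plus strand: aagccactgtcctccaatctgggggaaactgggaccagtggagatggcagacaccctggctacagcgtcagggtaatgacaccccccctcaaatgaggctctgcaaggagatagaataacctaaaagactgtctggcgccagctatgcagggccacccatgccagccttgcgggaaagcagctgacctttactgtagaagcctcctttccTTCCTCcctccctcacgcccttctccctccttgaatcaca
Clec7a chr6:129472780-129473029, minus strand: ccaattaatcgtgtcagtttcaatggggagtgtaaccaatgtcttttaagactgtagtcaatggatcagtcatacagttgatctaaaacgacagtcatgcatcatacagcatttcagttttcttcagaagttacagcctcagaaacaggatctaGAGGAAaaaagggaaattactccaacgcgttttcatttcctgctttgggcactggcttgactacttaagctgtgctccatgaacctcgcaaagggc
Vav1 chr17:57278850-57279099, plus strand: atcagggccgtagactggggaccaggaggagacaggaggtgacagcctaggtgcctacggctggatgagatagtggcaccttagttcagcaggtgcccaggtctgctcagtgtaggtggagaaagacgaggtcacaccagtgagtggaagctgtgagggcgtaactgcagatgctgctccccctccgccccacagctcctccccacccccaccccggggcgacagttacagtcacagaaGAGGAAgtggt
Cd33 chr7:43533172-43533421, minus strand: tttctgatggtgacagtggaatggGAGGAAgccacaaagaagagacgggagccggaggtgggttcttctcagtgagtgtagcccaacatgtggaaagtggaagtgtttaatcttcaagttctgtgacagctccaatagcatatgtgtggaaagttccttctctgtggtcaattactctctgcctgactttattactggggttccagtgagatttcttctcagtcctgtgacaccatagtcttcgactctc

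The libraries held between 36714316 and 50643565 counts. General microglial markers were present in every library, and 12 of 18 were called higher in APP/PS1 animals, where 1.75% of all genes were (edgeR's quasi-likelihood test, FDR under 0.1, both sexes averaged). Their summed level was 728 to 1193 counts scaled to library size (CPM) in APP/PS1 and 485 to 640 in WT animals. Markers of monocytes and neutrophils (6 genes) and of lymphocytes (5 genes) all stayed under the filter, which needs 3 libraries. The neutrophil genes S100a8 and S100a9 still reached up to 3.46 and 3.94 CPM among WT animals. Among APP/PS1 animals they reached up to 0.286 and 0.907 CPM. Choroid plexus transcripts marked 3 libraries, those of WT female 2, APP/PS1 male 2 and APP/PS1 female 1, in which Ttr lay between 3526 and 6318 CPM against 2.68 to 18.2 CPM in the others. The mouse App row did not show the transgene, since it lay between 1538 and 1648 CPM in APP/PS1 and between 1534 and 1720 CPM in WT animals, and so did not check the genotype labels.

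The receptors and their adaptor rose most. With both sexes averaged, Trem2 and Tyrobp were higher in APP/PS1 than in WT hippocampus, by 3.28-fold and 3.20-fold, and Clec7a was 51.4-fold higher. Levels are CPM scaled by upper-quartile factors, changes are log2 fold changes from edgeR's quasi-likelihood fit, and a gene was called at a false discovery rate (FDR) under 0.1 over all genes tested. Trem2 (ENSMUSG00000023992, chr17:48346401-48354147, plus strand) measured 31.4, 27.8, 42.1 and 23.6 CPM in the APP/PS1 females against 9.86 and 7.73 CPM in the WT females. In the males it measured 33.6, 34.9, 19.6 and 24.0 CPM against 8.67 and 9.36 CPM. Every APP/PS1 animal lay above every WT animal, by a gap wider than the whole WT range. The means were 29.6 ± 7.33 CPM (SD, n = 8) and 8.91 ± 0.923 CPM (SD, n = 4), a log2 fold change of 1.71 (SE 0.238, adjusted p = 0.0187). In bulk tissue, more cells of a type and more RNA per cell cannot be told apart.

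Tyrobp (ENSMUSG00000030579, chr7:30413760-30417585, plus strand) measured 37.9, 33.4, 55.9 and 34.0 CPM in APP/PS1 females and 10.9 and 10.3 CPM in WT females. In males the values were 42.8, 42.4, 29.1 and 27.4 CPM against 11.2 and 13.6 CPM. As for Trem2, the 8 APP/PS1 animals lay above the 4 WT animals without overlap. The log2 fold change was 1.68 (SE 0.214, adjusted p = 0.0131), and the 95% confidence intervals of the fold were 2.23 to 4.82 for Trem2 and 2.27 to 4.52 for Tyrobp. Clec7a (ENSMUSG00000079293, chr6:129461591-129472779, minus strand), a polymorphic pseudogene in the annotation used, was close to undetected in WT animals, with 4 to 7 counts per library (0.106 and 0.152 CPM in females, 0.184 and 0.119 CPM in males). In APP/PS1 animals it reached 104 to 594 counts, which were 10.3, 2.75, 13.7 and 8.48 CPM in females and 7.47, 12.2, 5.65 and 5.05 CPM in males. The lowest APP/PS1 value, in female 2, was still far above the highest WT value. Its log2 fold change was 5.68 (SE 0.555, adjusted p = 0.00309), with a 95% confidence interval of the fold from 21.2 to 124.65.

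**Figure D1:**
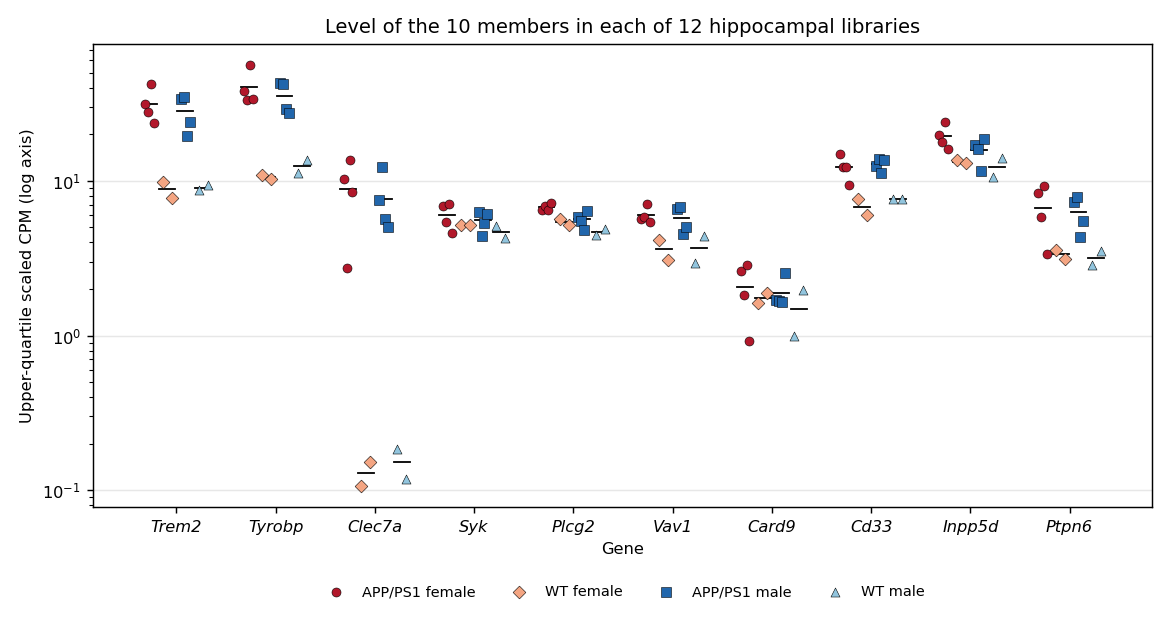
Level of each member in every library, as upper-quartile scaled CPM on a log axis, with 1 point per animal and short lines at the group means. The 8 APP/PS1 points of Trem2, Tyrobp, Clec7a, Vav1 and Cd33 lie above all 4 WT points, and those of Syk, Plcg2, Card9, Inpp5d and Ptpn6 overlap them.

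Of the 4 members that act downstream of the receptors, only Vav1 passed the test, and its change was smaller. Vav1 (ENSMUSG00000034116, chr17:57279100-57328031, plus strand) measured 5.64, 5.87, 7.13 and 5.40 CPM in APP/PS1 females against 4.16 and 3.08 CPM in their WT controls. In males it measured 6.56, 6.75, 4.55 and 5.0 CPM against 2.94 and 4.37 CPM. The groups did not overlap, although APP/PS1 male 3 lay just above WT male 2. The fold was 1.6 (log2 fold change 0.68, SE 0.165, adjusted p = 0.0739). Its call was lost on leaving out APP/PS1 female 1 (adjusted p = 0.107), female 2 (0.147), female 3 (0.138) or male 1 (0.133), or WT female 2 (0.277) or male 1 (0.163). It was also lost without the 3 choroid plexus-rich libraries and correction factors (0.401), but not without the factors alone (0.0758).

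Syk (ENSMUSG00000021457, chr13:52583173-52648792, plus strand), the kinase on which both receptors converge, did not pass. It measured 6.88, 5.45, 7.13 and 4.59 CPM in APP/PS1 females against 5.14 and 5.15 CPM in WT females. The male values were 6.28, 4.41, 5.37 and 6.14 CPM against 5.12 and 4.27 CPM. The groups overlapped, with 6 of 8 APP/PS1 animals above all WT animals. The fold was 1.2, with a 95% confidence interval of 0.979 to 1.47 (adjusted p = 0.572), so the interval held no fold as large as those fitted for Trem2 and Tyrobp. Plcg2 (chr8:117498291-117635142, plus strand) ranged from 4.83 to 7.15 CPM in APP/PS1 and from 4.44 to 5.70 CPM in WT animals, a fold of 1.23 (95% confidence interval 1.06 to 1.43, adjusted p = 0.297). Card9 (chr2:26352176-26360918, minus strand) ranged from 0.918 to 2.85 CPM against 0.998 to 1.98 CPM, with 3 of 8 APP/PS1 animals above all WT animals and a fold of 1.32 (0.958 to 1.81, adjusted p = 0.582). Card9 shares exon bases with the antisense gene Gm13562, and since the strand setting of the counting was not given in the sources used here, its counts are uncertain.

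Of Cd33 and the phosphatases Ptpn6 and Inpp5d, only Cd33 passed. Cd33 (ENSMUSG00000004609, chr7:43524216-43544428, minus strand) measured 14.9, 12.3, 12.3 and 9.43 CPM in APP/PS1 females, where the WT females gave 7.64 and 5.97 CPM. It measured 12.4, 13.9, 11.3 and 13.6 CPM in APP/PS1 males, where the WT males gave 7.67 and 7.58 CPM. The groups did not overlap. It was 1.76-fold higher (95% confidence interval 1.5 to 2.06), with a log2 fold change of 0.81 (SE 0.106) and the lowest adjusted p of the 10 members, 0.00171. Ptpn6 (chr6:124720707-124738714, minus strand) had a fitted fold of 2.0 with wide spread. It measured 8.37, 5.79, 9.22 and 3.37 CPM in APP/PS1 females, 7.33, 7.86, 4.35 and 5.53 CPM in APP/PS1 males and 2.84 to 3.58 CPM in WT animals. Only APP/PS1 female 4 fell within the WT range. Its 95% confidence interval was 1.34 to 2.98 and its adjusted p 0.147, and it passed on leaving out APP/PS1 female 3 (0.0984), female 4 (0.0134) or male 4 (0.0572). Ptpn6 shares exon bases with the antisense gene Gm20531 and is uncertain for the same reason as Card9. Inpp5d (chr1:87620312-87720507, plus strand) ranged from 11.6 to 24.0 CPM in APP/PS1 and from 10.6 to 14.0 CPM in WT animals, a fold of 1.41 (1.15 to 1.73, adjusted p = 0.152). It passed on leaving out APP/PS1 male 3 (adjusted p = 0.0232), the animal with its lowest APP/PS1 value.

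In all, 5 of 10 members were called higher with both sexes averaged, where 1.75% of all genes tested were called higher, and the same 5 had every APP/PS1 animal above every WT animal, where 1.37% of all genes did. All 10 fitted log2 fold changes were above 0, against 54.8% of all genes tested, and their median was 0.75 against 0.011. The 18 general microglial markers were likewise all above 0, with a median of 0.77 and 12 called, so this rise was not particular to the members. No member was called lower. By edgeR's likelihood ratio test, which the study used, 7 members were called, against 2.35% of all genes, with Inpp5d (adjusted p = 0.0203) and Ptpn6 (0.0091) added. Without the 3 choroid plexus-rich libraries and the correction factors, the log2 fold change was 1.59 for Trem2, 1.66 for Tyrobp and 5.79 for Clec7a. It was 0.64 for Cd33 and 0.56 for Vav1. That fit kept WT female 1 as the only WT female, so its calls say little about the members. The call of Trem2 was lost on leaving out WT male 2 (adjusted p = 0.112), where its log2 fold change was 1.74. Clec7a passed the filter on low counts only through the APP/PS1 animals, so its presence among the tested genes depended on its change.

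**Figure D2:**
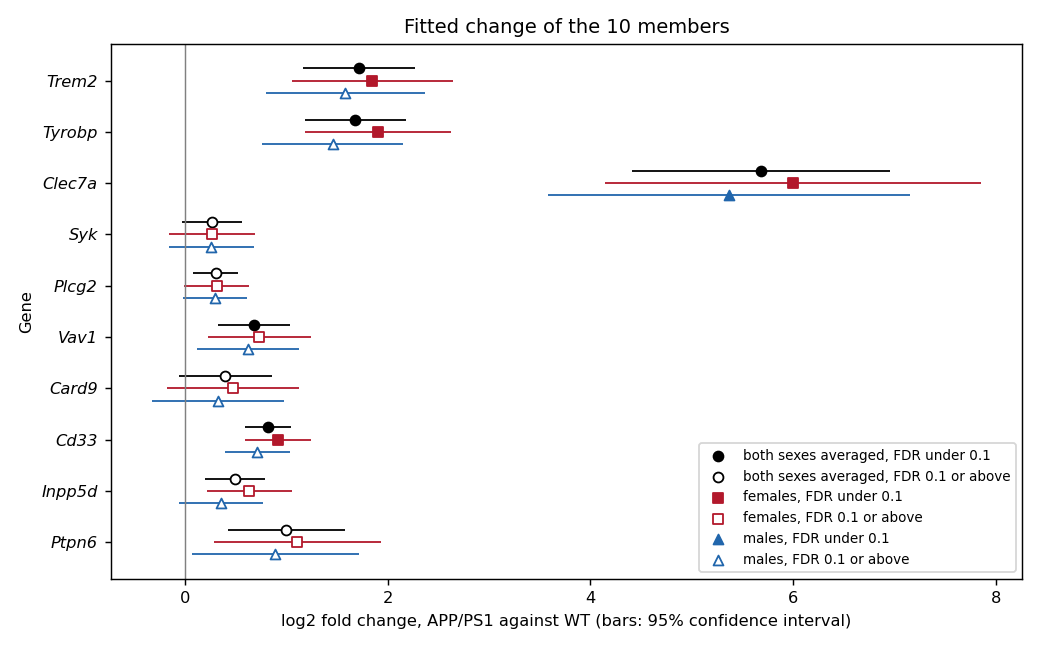
Fitted log2 fold change of each member, APP/PS1 against WT, with bars for the 95% confidence interval, for both sexes averaged (circles), females (squares) and males (triangles). Filled symbols passed an FDR of 0.1. Clec7a stands far to the right at 5.37 to 6.00, Trem2 and Tyrobp lie between 1.46 and 1.90, and the other 7 members lie between 0.26 and 1.11.

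The study asked whether females and males differ in their response, and the change within each sex was therefore also tested, as a contrast in the model of all 12 libraries. In females, where 0.773% of all genes were called higher, 4 members were: Clec7a at 64.1-fold (adjusted p = 0.0266), Tyrobp at 3.74-fold (0.0618), Trem2 at 3.59-fold (0.0991) and Cd33 at 1.89-fold (0.0181). In males, where 0.161% of all genes were called higher, Clec7a was the only member called, at 41.3-fold (adjusted p = 0.0828). There Trem2 was fitted at 2.99-fold (0.370), Tyrobp at 2.75-fold (0.337) and Cd33 at 1.64-fold (0.158), and they did not pass. Every APP/PS1 male lay above both WT males for each, but the share of all genes ordered this way was not counted. With so few animals this order is no support for these genes. In a separate fit of each sex without correction factors, 3 members were called in females, where 0.696% of all genes were called higher. These were Clec7a (adjusted p = 0.0828), Tyrobp (0.0267) and Trem2 (0.0378), and Cd33 was not called (log2 fold change 0.85, 0.155). Clec7a alone was called in males (5.66, 0.0145), where 0.0937% of all genes were called higher. The likelihood ratio test called 5 members in females (1.85% of all genes) and 4 in males (0.67%). The test of the difference between the sexes called no member and no gene (0% of all genes called, 586 genes at an unadjusted p under 0.05). The likelihood ratio test and DESeq2 called no member either. The fitted difference was above 0, a larger change in females, for all 10 members. It was also above 0 for 54.1% of all genes tested and for 14 of 18 general microglial markers. Among the members the lowest unadjusted p of the quasi-likelihood test was 0.318, for Tyrobp (log2 difference 0.44, 95% confidence interval -0.52 to 1.41). The log2 difference was 0.27 for Trem2 (-0.82 to 1.35) and 0.63 for Clec7a (-2.82 to 4.09). These intervals were too wide to show that the sexes responded alike. That of Clec7a is approximate, and wider than its standard errors within females (0.806) and within males (0.777) would give. The direction of this difference was not stable for Syk, Plcg2, Vav1, Card9, Cd33 and Ptpn6, for which it turned below 0 under some settings.

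In males the call of Clec7a lay close to the threshold. Its adjusted p ended above 0.1 on leaving out any of 10 of the 12 animals, all but APP/PS1 females 2 and 3 and so including females that are not in this contrast, and reached 0.778 without WT male 2. Its log2 fold change stayed between 5.14 and 5.63 throughout, against 5.37 with all animals. In females the number of members called ranged from 1 to 5 on leaving out single animals. It was 1 without either WT female, and 2 without APP/PS1 male 2, either WT male, or female 1 or 2 of the APP/PS1 group. With no correction factors, 4 members were called in females, where 0.535% of all genes were called higher, and 3 in males, where 0.148% were. Leaving out the 3 choroid plexus-rich libraries as well kept WT female 1 as the only WT female, so calls from that fit say little about the members. The log2 fold change of Clec7a was then 6.25 in females and 5.33 in males.

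Set against other microglial transcripts, the members fell into groups. For each library the mean log2 level of 18 general microglial markers (such as Csf1r, Cx3cr1 and P2ry12) was subtracted from the member's log2 level. The marker mean was itself higher by 0.74 in APP/PS1 animals, at 4.74 to 5.38 against 4.14 to 4.45 in WT animals, with no overlap. Trem2 remained 0.96 higher on this relative scale (-0.44 to 0.013 in APP/PS1, -1.22 to -0.95 in WT), and Tyrobp 0.95 higher (-0.052 to 0.42 against -0.84 to -0.68). Clec7a remained 4.77 higher (-3.38 to -1.58 against -7.25 to -6.59). These 3 members were again without overlap, where 0.193% of all genes tested were higher without overlap on this scale. Vav1 (-0.048) and Cd33 (0.050) differed from the markers by almost nothing, their groups overlapped, and the sign for Vav1 turned with a shorter list of 4 markers (0.017). Ptpn6 was 0.18 higher with overlap. Syk (-0.52), Card9 (-0.49), Plcg2 (-0.45) and Inpp5d (-0.29) were lower relative to the markers, with 5 of 8 APP/PS1 animals below all WT animals for Syk and for Plcg2 and 3 of 8 for Card9 and for Inpp5d. These relative values are descriptions and were not tested.

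**Figure D3:**
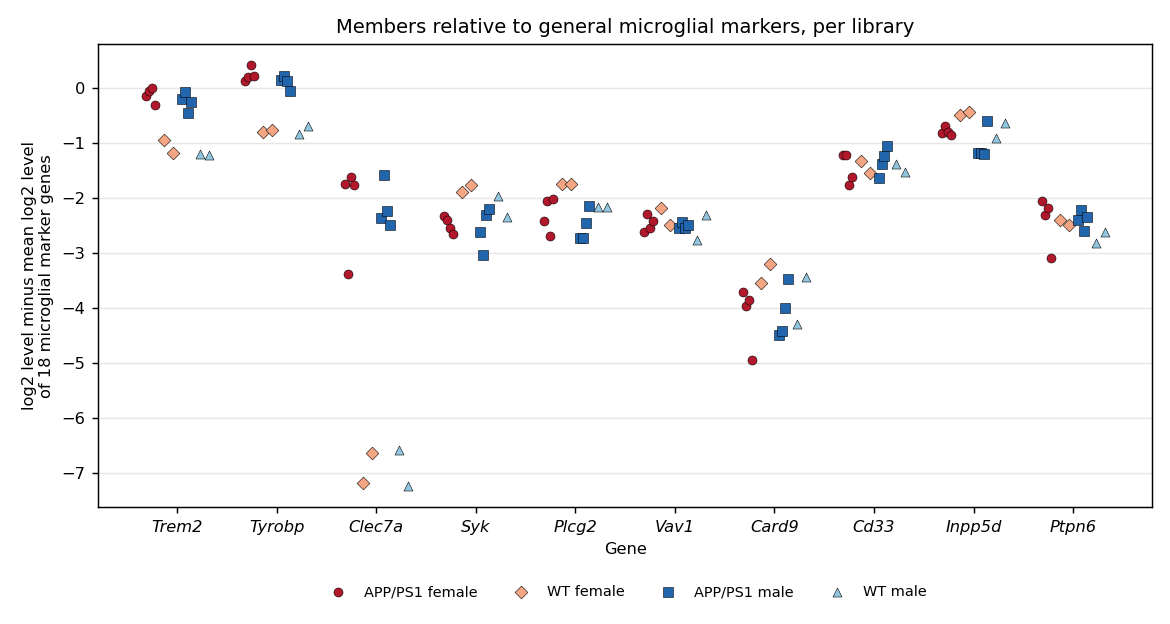
Log2 level of each member minus the mean log2 level of 18 general microglial markers in the same library, 1 point per animal. Trem2, Tyrobp and Clec7a are higher in all APP/PS1 animals on this scale by 0.96, 0.95 and 4.77 on average, Vav1 and Cd33 are about level, and Syk and Plcg2 tend lower.

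Per exon length, as RPKM computed from the merged exons, Tyrobp was the most abundant member in both genotypes, at 17.2 ± 2.13 RPKM (SD, n = 4) in WT and 56.8 ± 13.8 RPKM (SD, n = 8) in APP/PS1 animals. Trem2 was second in APP/PS1 animals at 5.99 ± 1.48 RPKM, and 1.80 ± 0.187 RPKM in WT animals, where Inpp5d came next at 1.68 ± 0.196 RPKM and did not differ from it beyond the spread. The merged exons of Trem2 include a retained intron, and over its principal transcript its level was 8.19 RPKM in WT and 27.2 RPKM in APP/PS1 animals, against 20.4 and 67.1 RPKM for Tyrobp. Over principal transcripts, Cd33 (4.03 RPKM) and Inpp5d (2.59 RPKM) came after Trem2 in WT animals, so the near tie held only for merged exons and the longest transcript. Clec7a moved from last place in WT animals (0.0531 ± 0.0133 RPKM) to rank 3 in APP/PS1 animals (3.11 ± 1.41 RPKM), and kept both places with each of 3 length choices. Over merged exons the remaining members lay between 0.526 and 1.17 RPKM in WT animals, besides Inpp5d, and their order changed with the length used.

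Among the 8 APP/PS1 animals the members varied by different amounts. The highest value was 1.48 times the lowest for Plcg2, 2.04 times for Tyrobp, 2.15 times for Trem2 and 4.96 times for Clec7a. APP/PS1 female 3 had the highest value of 8 of the 10 members, all but Plcg2 and Cd33, and the highest microglial marker mean (5.38). APP/PS1 male 3 had the lowest value for 4 members and the lowest marker mean (4.74). Clec7a departed from this order in APP/PS1 female 2, where it lay 1.42 below its own mean over the 8 animals on the log2 scale, while Trem2 lay 0.05 and Tyrobp 0.15 below theirs. Over these 8 animals the Pearson correlation of log2 levels was 0.93 between Trem2 and Tyrobp (Spearman's rho 0.86), 0.96 between Trem2 and Vav1 (0.95) and 0.87 between Trem2 and Ptpn6 (0.90). It was 0.58 between Trem2 and Clec7a (0.67), 0.39 between Trem2 and Syk (0.43) and 0.20 between Trem2 and Plcg2 (-0.071). With the 2 animals farthest from the median of Trem2 left out, these Pearson values were 0.89, 0.90, 0.86, 0.44, 0.088 and -0.80. Within the 4 females and the 4 males alone they were 0.94 and 0.91 for Tyrobp and 0.92 and 0.99 for Vav1, but 0.90 and -0.25 for Syk and -0.88 and 0.37 for Plcg2. Trem2 correlated to the same extent with the microglial marker mean (0.95). Over all 45 pairs of members the median was 0.46, with a range of -0.16 to 0.96. These values are descriptions without a test, and the libraries share depth and microglial content.

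**Figure D4:**
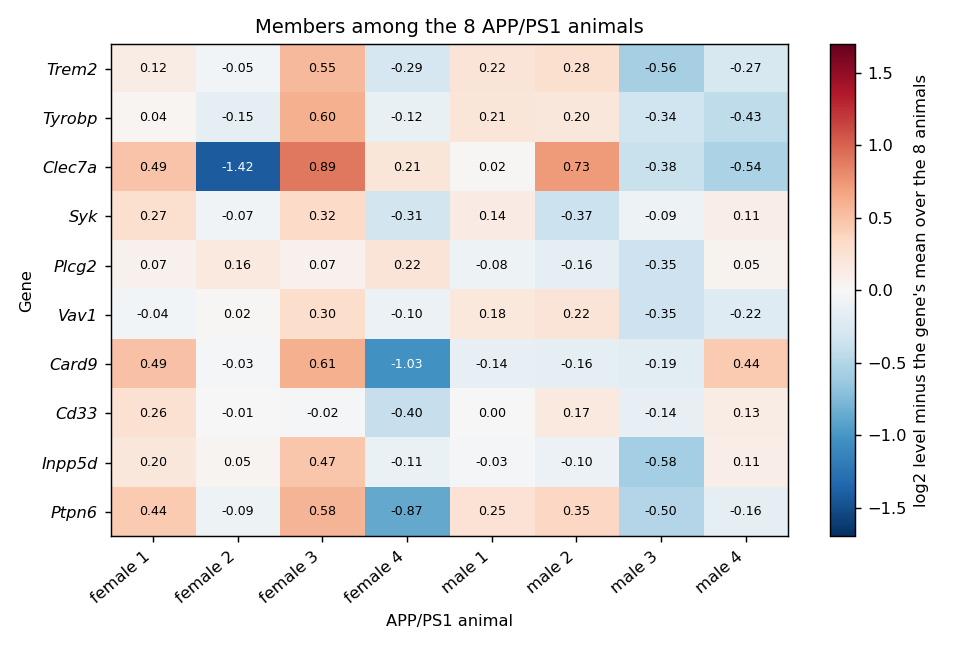
Log2 level of each member in each of the 8 APP/PS1 animals, minus that gene's mean over the 8, written in each cell and shaded from blue (lower) to red (higher). Female 3 is high in nearly every row, male 3 is low in every row, and Clec7a in female 2 (-1.42) and Card9 in female 4 (-1.03) are the lowest cells.

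The genes with the most similar pattern were named by the highest Pearson correlation of log2 levels. Over all 12 libraries, which span both genotypes, the genes most like Trem2 included Cd68 (0.99), Tyrobp (0.99), Mpeg1 (0.99) and Laptm5 (0.98). Tyrobp was most like Trem2, Cd84 (0.99), Mpeg1 (0.98), Cd68 (0.98) and Laptm5 (0.98), and Clec7a was most like Ccl6 (0.98), Cd52 (0.98), Thy1 (0.98), Cst7 (0.98) and Cd84 (0.97). Within the 8 APP/PS1 animals the lists differed, but each holds the highest correlations among 15521 tested genes over few animals. Values this high can then arise by chance, and none was tested. Trem2 was then most like Irf8 (0.98), Lgmn (0.97), Arl11 (0.97), Smug1 (0.96) and Vav1 (0.96). Tyrobp was most like Ly86 (0.99), Cyba (0.97), Cd53 (0.97), Fcgr1 (0.95) and Slamf9 (0.95), and Clec7a was most like Ikzf1 (0.97), Tmem134 (0.95), Orai1 (0.94), Inka1 (0.94) and Pdss2 (0.93).

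The wider pathway was described with 5 lists of 74 genes, of which 54 were tested. Of 13 other receptors and adaptors, 3 passed the filter and 2 rose, where 1.75% of all genes did: Fcer1g, the ITAM-bearing gamma chain of Fc receptors (5.17 ± 0.57 CPM in WT and 11.4 ± 1.53 CPM in APP/PS1 animals, log2 fold change 1.12, adjusted p = 1.41e-04), and Siglech, a receptor that pairs with Tyrobp (0.80, 0.0290). Clec5a, another Tyrobp-coupled receptor, had a log2 fold change of 0.69 (adjusted p = 0.286). Fcer1g was called in females (adjusted p = 0.00219) as in males (0.0412), and its groups did not overlap. Of 12 kinases, 11 were tested and 1 rose (1.75% of all genes were called higher), Tec (0.80, adjusted p = 0.0396). The Src-family kinase Lyn (0.39, 0.106) and the Tec-family kinase Btk (0.56, 0.311) did not pass, and the median of the list was 0.021. No kinase was called on leaving out WT female 2, APP/PS1 male 2 or WT male 2.

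Of 19 tested adaptors and effectors further downstream, 3 rose, against the same 1.75% of all genes. These were Nckap1l (Hem1), the haematopoietic subunit of the WAVE actin regulatory complex (log2 fold change 0.61, adjusted p = 0.00867), the phosphoinositide 3-kinase subunit Pik3cg (0.76, 0.0319) and the transmembrane adaptor Lat2 (1.28, 0.0389). Blnk, an adaptor phosphorylated by Syk, did not pass (0.61, 0.127), and the median of the list was 0.15. The count of this list fell to 1 without WT female 2, rose to 5 without APP/PS1 male 4 and to 6 without WT male 2, and was 7 by the likelihood ratio test, which called 2.35% of all genes higher. Of 16 tested inhibitory receptors and negative regulators, 6 were called higher, all of them membrane proteins: Lilrb4a (3.46, adjusted p = 0.00100), Cd22 (2.46, 0.00222), Siglecf (1.32, 0.0109) and Cd300lf (2.26, 0.0140), with Ptprc (1.20, 0.0154) and Lair1 (0.81, 0.0370), which were added after their values were seen. Of these, Lilrb4a, Cd22, Cd300lf and Siglecf passed the filter on low counts only through the APP/PS1 animals, with WT maxima of 0.158, 0.345, 0.318 and 0.946 CPM, so the number called is no support for the list as a whole. Lilrb4a was low in WT animals, at 1 to 8 counts per library against 17 to 82 in APP/PS1 animals, and Cd300lf likewise at 1 to 12 against 13 to 59. Ptprc (CD45) is a phosphatase that can also activate Src-family kinases. The median of the list was 0.43.

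Of 5 tested genes for Trem2 shedding or from the Ms4a cluster, none was called with both sexes averaged (0 at an unadjusted p under 0.05, and 0 by the likelihood ratio test or DESeq2). Adam17, a sheddase that cleaves Trem2, had a log2 fold change of 0.13 (adjusted p = 0.521), Ms4a6d 0.36 (0.575), Ms4a6b -0.25 (0.765) and Ms4a6c 0.19 (0.886). The averages combine unlike values in the 2 sexes. Ms4a6d was fitted at 0.91 in females and -0.19 in males, Ms4a6c at 0.86 and -0.48, and Ms4a6b at 0.13 and -0.63. The unadjusted p of the difference between the sexes was 0.0129 for Ms4a6d and 0.0339 for Ms4a6c, and neither passed over all genes (adjusted p = 0.998 for each). No tested gene of the 5 lists was called lower. With no correction factors, 2 receptors and adaptors, no kinase, 3 downstream genes and 6 inhibitory genes were called, where 1.23% of all genes were called higher. Leaving out the choroid plexus-rich libraries as well kept WT female 1 as the only WT female, so calls from that fit say little about the lists. The general microglial markers had a median log2 fold change of 0.77, of which Ly86 (1.28) and Gpr34 (1.05) were the highest called, and 5 neuronal markers had a median of 0.006. Mrc1 (0.06, adjusted p = 0.940) and Cd163 (-0.53, 0.407), which mark macrophages at the borders of the brain, did not pass. All lists were chosen with results of these data known, so their counts describe the genes and were not tested against other lists.

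**Figure D5:**
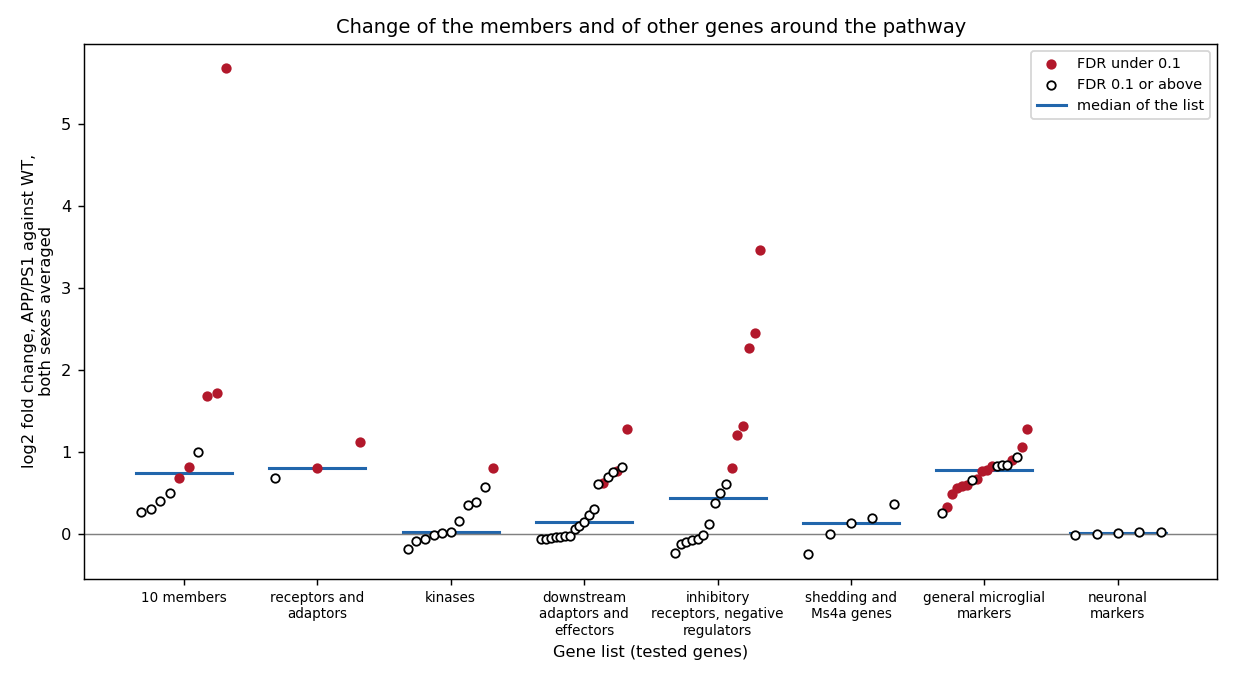
Log2 fold change, APP/PS1 against WT with both sexes averaged, of every tested gene of the 10 members, the 5 pathway lists, the general microglial markers and the neuronal markers, with 1 point per gene, filled where the FDR was under 0.1, and a bar at each list's median. The medians are 0.75 for the members, 0.80 for receptors and adaptors, 0.021 for kinases, 0.15 downstream, 0.43 for inhibitory genes, 0.13 for shedding and Ms4a genes, 0.77 for microglial markers and 0.006 for neuronal markers.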

How the data were processed

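mRNA of the right hippocampus of 12 mice was sequenced from directional libraries. Per the labels and the study's methods, the authors used Trimmomatic for trimming, STAR for alignment to GRCm38 and HTSeq for counting, and the deposited values are raw counts per Ensembl gene. Versions, annotation and the strand and multi-mapping options are not given in the sources used here. Symbols, positions and lengths came from GENCODE M21 (55480 of 55573 identifiers matched). No library pair within a group agreed within sampling noise (chi-square per degree of freedom 11.6 to 52.0 over 14 pairs).

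Genes with a CPM of at least 1 in at least 3 libraries (15521) were tested with edgeR 4.0.16 (R 4.3.3), by the quasi-likelihood F test in 1 model of the 4 groups with upper-quartile scaling and 2 RUV factors. These factors were computed here by the RUVg method, with all genes but the 5000 top-ranked as controls. Contrasts were two-sided, Benjamini-Hochberg adjustment covered every tested gene, and calls were made at an FDR under 0.1. The study states a filter on log2 CPM, and the filter on CPM was used because it left the number of genes that the study gives. Relative levels and correlations used log2 CPM with a prior count of 1. The procedure was tested on simulated counts.

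The members and lists were chosen with earlier results of these data known. Named were the 10 members, the 4 genes with the smallest averaged p in each pathway list, and the 5 genes most correlated with Trem2, Tyrobp and Clec7a over 12 and over 8 libraries. Genes named beyond this rule (Ptprc, Lair1, Ttr, App and single markers) were picked after their values were seen. Alternatives were the likelihood ratio test, DESeq2 1.42.0, TMM scaling, other filters, 0 or 1 RUV factors, an FDR of 0.05, a replicate block, each sex alone with no RUV factors, leaving out the choroid plexus-rich libraries with no RUV factors, and leaving out each animal. Using the principal transcript's length was added after seeing the data. Where leaving out a WT animal left 1 in its group, that animal was assumed to vary like the other groups. Replicate numbers were treated as names only, and p-values measure the spread between these animals. Values of some single genes in the lists are not reported here.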

Additional observations from a re-analysis of the deposited data

Results flagged for a closer look

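Card9 measured 2.54 CPM in APP/PS1 male 4, while the other 3 APP/PS1 males lay between 1.64 and 1.69 CPM. This was the only sample far from the rest of its group by Dixon's test (critical value 0.829 for 4 samples) among 20 groups of 4 tested, 10 members in each sex of APP/PS1 animals, and chance flags about 1 in 20 such groups. Card9 was not called in any comparison.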

How the results depend on the processing

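With both sexes averaged, the number of members called was 5 and lay between 4 and 6 on leaving out single animals. All 10 averaged log2 fold changes stayed above 0 under every alternative run, and Clec7a and Cd33 stayed called. Whether the replicate numbers pair the animals was not settled. Over 14 pairs of libraries with the same number the correlation of deviations ran from -0.61 to 0.66. It passed 0.1 in 4, and 2 of 12 libraries correlated best with their own number. The check cannot exclude pairing, since with 2 WT animals per sex the deviations mirror each other, and both WT pairs gave 0.0747. The highest value joined WT female 2 and APP/PS1 male 2, both choroid plexus-rich. With a replicate block, 2 members were called with both sexes averaged, 2 in females and 0 in males, and Trem2 (log2 fold change 1.82, adjusted p = 0.160), Tyrobp (1.73, 0.119) and Vav1 (0.81, 0.138) lost their averaged call with fold changes no smaller than before. In females, 4 members were called, against 1 without the expression filter, 2 at an FDR under 0.05, 0 without the choroid plexus-rich libraries and 1 to 5 on leaving out single animals. In males, 1 member was called, against 4 by the likelihood ratio test, 4 by DESeq2, 3 with no RUV factors, 0 at an FDR under 0.05, 0 without the choroid plexus-rich libraries and 0 to 2 on leaving out single animals. In females the share of all genes called higher was 0.773%, 0.455% without the filter and 0.483% at an FDR under 0.05. In males it was 0.161%, 0.67% by likelihood ratio test, 0.689% by DESeq2, 0.148% without RUV factors and 0.0966% at an FDR under 0.05. With both sexes averaged it was 1.75%, and 1.19% with the replicate block. That block gave 0.689% in females and 0.0902% in males. Leaving out the choroid plexus-rich libraries, here and below, was combined with no RUV factors and kept WT female 1 as the only WT female. The cause of these changes was not tested.

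Of the pathway lists, receptors and adaptors had 2 called, 4 without the expression filter and 1 to 3 on leaving out single animals. Kinases had 1 called, 2 by the likelihood ratio test, by DESeq2 and without the filter, 0 with no RUV factors and without the choroid plexus-rich libraries, and 0 to 2 on leaving out animals. Downstream genes had 3 called, 7 by the likelihood ratio test and by DESeq2, 0 without the choroid plexus-rich libraries, and 1 to 6 on leaving out animals. Inhibitory genes had 6 called, and 2 with the log2 CPM filter, which drops the least abundant of them. The share of all genes called higher was 1.75%, 0.794% without the expression filter and 1.68% with the log2 CPM filter. It was 2.35% by the likelihood ratio test, 2.18% by DESeq2 and 1.23% with no RUV factors. Calls without the choroid plexus-rich libraries say little about the lists, since WT female 1 was then the only WT female.

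The fitted difference between the sexes, called for no member under any setting, turned below 0 as follows. For Syk it was -0.0026 by DESeq2, -0.0082 with TMM scaling, -0.016 with no RUV factors, -0.038 with 1 RUV factor and -0.18 without the choroid plexus-rich libraries. For Plcg2 it was -0.0025 with TMM scaling, -0.0082 with no filter and -0.026 without those libraries. For Card9 it was -0.098 with no RUV factors and -0.16 without those libraries, where it was -0.13 for Cd33 and -0.070 for Ptpn6. Leaving out single animals gave -0.14 to 0.18 for Syk, -0.089 to 0.080 for Plcg2, -0.25 to 0.48 for Vav1, -0.32 to 0.48 for Card9 and -4.8e-05 to 0.62 for Cd33, and -0.053 to 0.73 for the Card9 change in males.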
